A study of Mus musculus with 9 samples.

Results

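Neurexins, neuroligins and neurexophilins were followed as 9 genes (Nxph1, Nxph2, Nxph3, Nxph4, Nrxn2, Nrxn3, Nlgn1, Nlgn2 and Nlgn3) of the 23319 gene symbols counted. They were taken by symbol from the count tables, and the set was put together partly because Nxph1 and Nxph2 were known to be absent from one group of libraries. In the contrasts with that group the levels of Nxph1 and Nxph2 are therefore a description with no test. The study profiled RNA of green fluorescent interneurons from the mouse frontal cortex by RNA sequencing in 9 libraries, 3 for each of 3 Cre driver lines, all carrying the Cre-dependent fluorescent reporter Ai47.

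All cells came from pups at postnatal day 5. Upper cortical tissue (layer 2/3) of the medial prefrontal and anterior cingulate areas was cut out and dissociated, and 150 fluorescent cells were picked by hand for each library. The Nkx2.1 group came from Nkx2.1-CreER;Ai47 mice that had received tamoxifen at embryonic day 17; the protocol calls these cells ChC, for chandelier cells, whose axons contact the initial segment of pyramidal cell axons. The SOM group came from SOM-Cre;Ai47 mice, in which Cre follows the somatostatin gene, and the VIP group from VIP-Cre;Ai47 mice, in which it follows the gene of vasoactive intestinal peptide; for both the labels give no treatment. Driver line and tamoxifen therefore cannot be told apart. Nothing in the labels ties a replicate to an animal of its own, so p-values reflect only the spread between these libraries, which may be partly technical.

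Neurexins are presynaptic membrane proteins that organise synapses, and neuroligins are their classical partners on the postsynaptic side. Neuroligin 1 is found mainly at excitatory synapses, neuroligin 2 at inhibitory synapses and neuroligin 3 at both. Neurexophilins are small secreted glycoproteins that bind the extracellular part of alpha-neurexins. Cortical interneurons of the medial ganglionic eminence (which Nkx2.1 and SOM drivers mark) and of the caudal ganglionic eminence (which VIP marks) differ in origin.

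The neurexophilin genes resemble each other, which bears on whether reads can be assigned to one of them. Over their coding sequences Nxph1 and Nxph2 were identical at 66.8% of 776 aligned bases. Their longest shared run, searched over whole transcripts, was 14 bases. Among all pairs of neurexophilins the longest identical run was 24 bases, between Nxph3 and Nxph4. The 120 bases printed here were picked as the stretch of the coding sequences in which the other neurexophilins are most like Nxph1. The 66 positions identical in all 4 genes are in capitals (GRCm38, written 5′ to 3′ on the coding strand). The stretches are near the end of each coding sequence, in exon 2 of each gene. They lie at chr6:9247715-9247834 (plus strand, Nxph1), chr2:23400292-23400411 (plus strand, Nxph2), chr11:95510840-95510959 (minus strand, Nxph3) and chr10:127526112-127526231 (minus strand, Nxph4).
Nxph1: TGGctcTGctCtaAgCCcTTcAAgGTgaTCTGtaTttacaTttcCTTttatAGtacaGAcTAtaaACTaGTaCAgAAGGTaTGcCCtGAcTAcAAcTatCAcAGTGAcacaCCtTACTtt
Nxph2: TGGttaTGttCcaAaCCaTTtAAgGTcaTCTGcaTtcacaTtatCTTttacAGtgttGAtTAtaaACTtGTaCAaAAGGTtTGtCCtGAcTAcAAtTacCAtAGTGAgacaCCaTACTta
Nxph3: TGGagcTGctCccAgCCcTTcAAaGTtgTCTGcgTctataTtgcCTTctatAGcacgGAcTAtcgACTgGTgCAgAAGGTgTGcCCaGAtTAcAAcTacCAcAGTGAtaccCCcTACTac
Nxph4: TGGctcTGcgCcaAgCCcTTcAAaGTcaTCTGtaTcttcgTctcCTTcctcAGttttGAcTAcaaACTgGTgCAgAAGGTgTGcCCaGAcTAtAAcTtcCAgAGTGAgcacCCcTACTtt
Within this stretch, picked for likeness, Nxph2, Nxph3 and Nxph4 matched Nxph1 at 77.5%, 76.7% and 75.8% of positions. Identity over the coding sequence was 67.2% between Nrxn2 and Nrxn3 and 65.6% to 68.9% among the neuroligins. The longest shared runs of their whole transcripts were 17 to 23 bases.

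Reads assigned to genes numbered 6484488 to 12465997 per library, and levels are given as CPM, counts scaled to the reads in genes of each library, after TMM scaling for library composition. A floor of 3 reads corresponded to 0.246 to 0.444 CPM. Genes with a read numbered 8180 to 10576 in Nkx2.1 libraries, 10923 to 11490 in SOM and 9672 to 10927 in VIP. Every Nkx2.1 library thus had reads of fewer genes than any SOM library, though it had more reads in genes. The part of this in low Nkx2.1 values was not tested. The typical gene varied widely between replicates: among genes with a mean of at least 20 CPM the median coefficient of variation over 3 libraries was 87.6% in Nkx2.1, 46.2% in SOM and 61.6% in VIP. Sst and Vip, the genes that drive Cre in the SOM and VIP groups, were highest in the group of that label: Sst averaged 1734 ± 379 CPM in SOM (SD, n = 3) against 17.6 ± 18.1 in Nkx2.1 and 0.0409 in VIP, and Vip averaged 634 ± 201 CPM in VIP against 1.17 in Nkx2.1 and 0.419 in SOM. Lhx6, a transcription factor of the medial eminence lineage, averaged 1444 ± 489 CPM in Nkx2.1, 740 ± 118 in SOM and 0.0818 in VIP. For Nkx2-1 itself, replicates 1, 2 and 3 of the Nkx2.1 group gave 12, 10 and 1 reads, the SOM group 1 read in all and the VIP group 0. Nkx2.1 replicate 3 was thus under the floor and no higher than the SOM library with a read (0.0828 against 0.114 CPM), so this gene does not check the label of that library. The GABA-synthesising enzyme gene Gad1 averaged 1253 ± 541 CPM in Nkx2.1, 1180 ± 163 in SOM and 1467 ± 493 in VIP. All 7 GABAergic markers had reads in all 9 libraries, and Gad2 averaged 349 ± 103, 571 ± 173 and 309 ± 147 CPM. The vesicular GABA transporter gene Slc32a1, of the same list, was low in Nkx2.1, at 4.53 ± 3.73 CPM against 44.8 ± 29.7 in SOM and 65.7 ± 11.8 in VIP. Astrocyte markers (8 genes) summed to 3563, 663 and 253 CPM in Nkx2.1 replicates 1, 2 and 3, to 63.9 to 211 CPM in SOM and to 262 to 412 CPM in VIP. Oligodendrocyte lineage markers (7 genes) summed to 259 to 302, 96.6 to 194 and 1.72 to 98.3 CPM in Nkx2.1, SOM and VIP, excitatory neuron markers (7 genes) to at most 156 CPM, and microglial (5 genes) and endothelial and mural markers (6 genes) to at most 17.8 CPM in any library. Markers of layer 6b and Cajal-Retzius neurons (5 genes) summed to 53.1 to 211, 9.95 to 238 and 603 to 1278 CPM; in VIP this was mainly Calb2 (978 ± 346 CPM), which VIP interneurons also express. Of the other genes in that list, Ctgf reached 85.6 CPM in an Nkx2.1 library, Trp73 reached 83.6 CPM in Nkx2.1 and 57.3 CPM in SOM, Lhx5 stayed at or under 0.338 CPM and Cplx3 had no read in any library.

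Together the 9 genes took 0.322% to 0.367% of the reads in genes in Nkx2.1 libraries, 0.267% to 0.356% in SOM and 0.127% to 0.223% in VIP. The sum includes Nxph1 and Nxph2, which were chosen for their absence from VIP. The lower share in VIP is therefore partly built in and is no result about the set. Nrxn3 and Nxph1 carried most of it: Nrxn3 was abundant in all 9 libraries, and Nxph1 was abundant in Nkx2.1 and SOM and without a read in VIP. Of the 9 genes, 7 passed the filter on low counts, and Nxph3 and Nxph4 did not. In none of the comparisons did a tested gene of the set pass edgeR's quasi-likelihood test at an adjusted p of 0.05 (Benjamini-Hochberg over 10728 genes). The counts were 0 of 7 for Nkx2.1 against SOM, where 0.0932% of all genes passed, 0 of 5 for Nkx2.1 against VIP, where 0.308% passed, and 0 of 5 for SOM against VIP, where 0.0746% passed. At an unadjusted p under 0.05 the counts were 1, 0 and 0, against 11.3%, 15.2% and 6.99% of all genes. DESeq2 called 1, 0 and 0, against 7.16%, 11.8% and 3.56% of all genes. The 1 gene in each case was Nlgn1. With so few calls among all genes, a count of 0 in this set is no result about its members, and the intervals given with each gene show the sizes of difference compatible with the data.

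**Figure D1:**
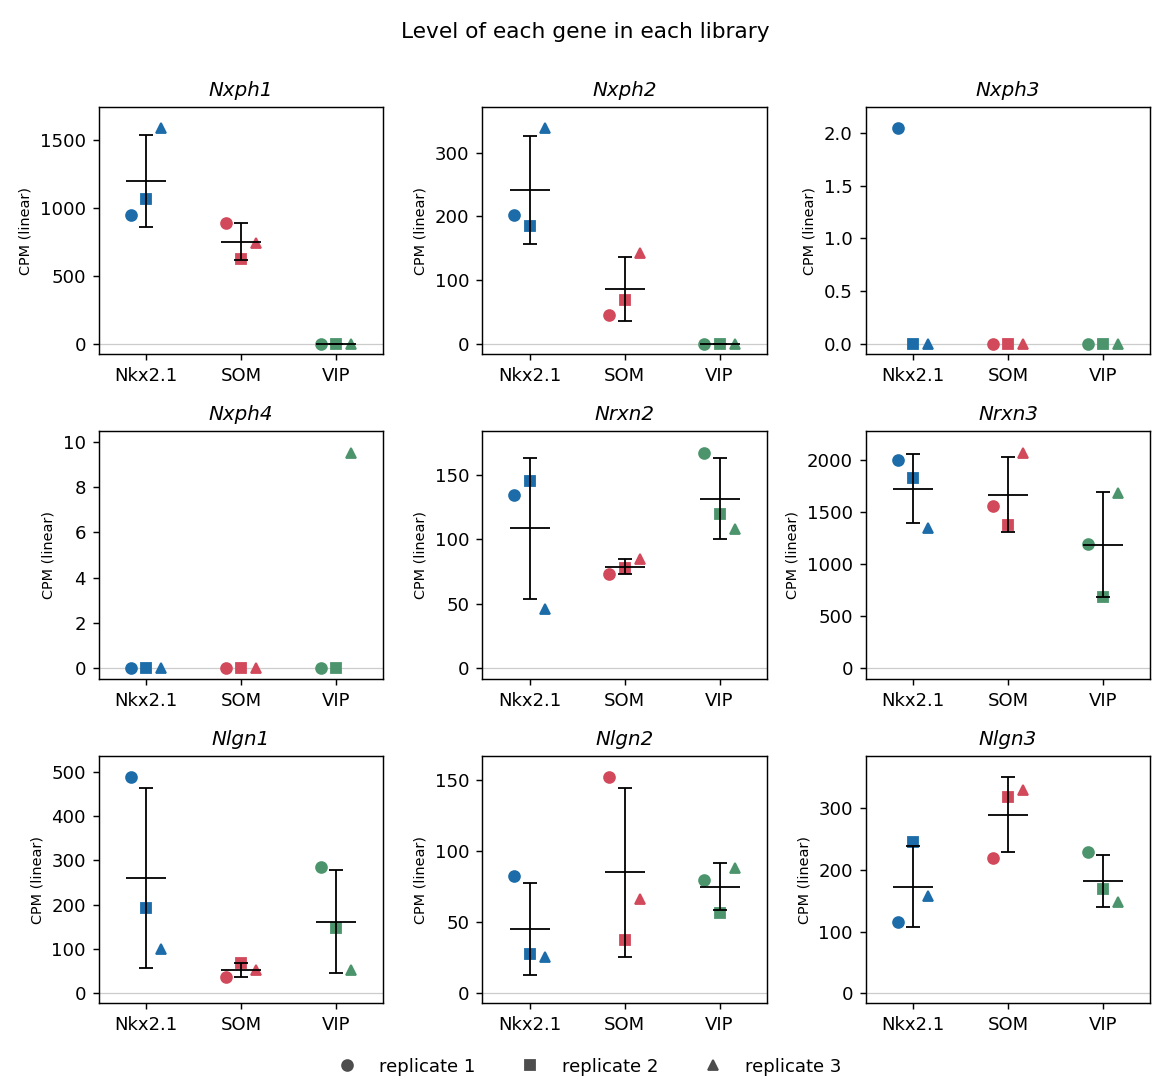
Level of each of the 9 genes in each library, in CPM on a linear axis, with a horizontal line and bar for the mean ± SD of 3 libraries (not drawn for Nxph3 and Nxph4, each with reads in 1 library). Nxph1 and Nxph2 are at 0 in all VIP libraries, Nrxn3 is high in every library, and Nlgn1 spreads from 99.3 to 489 CPM within the Nkx2.1 group.

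Among the neurexophilins, Nxph1 was the most abundant. Nxph1 (chr6:8948431-9249032, plus strand) encodes neurexophilin 1, a ligand of alpha-neurexins. Its level was 945, 1066 and 1585 CPM in Nkx2.1 replicates 1, 2 and 3 (8324, 12604 and 19141 reads). In the SOM libraries it was 890, 620 and 745 CPM, and in each VIP library it was 0 reads. All 3 Nkx2.1 libraries lay above all 3 SOM libraries on the TMM scale, but the lowest Nkx2.1 value and the highest SOM value were close. The groups averaged 1199 ± 340 and 752 ± 135 CPM (SD, n = 3 each), a log2 difference of 0.67 ± 0.35 (SE; 95% interval −0.13 to 1.47) that did not pass edgeR's test (adjusted p = 0.532). Without the scaling factors the Nkx2.1 libraries held 767, 1011 and 1613 CPM and overlapped the SOM libraries at 913, 646 and 759 CPM. Within each group Nxph1 varied less than the typical gene, with a coefficient of variation of 28.4% in Nkx2.1 and 18.0% in SOM. The typical gene here is the median over all genes with a mean of at least 20 CPM. Those genes were not matched to Nxph1 in level, so the smaller spread is not read as a trait of Nxph1.

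Nxph2 (chr2:23321246-23401973, plus strand) encodes neurexophilin 2, of the same family. Its level was 202, 184 and 338 CPM in Nkx2.1, 45.6, 68.5 and 142 CPM in SOM, and 0 in each VIP library. The Nkx2.1 libraries again lay above the SOM libraries without overlap. The means were 242 ± 84.4 and 85.5 ± 50.5 CPM (SD, n = 3 each), and the log2 difference of 1.5 ± 0.83 (SE; 95% interval −0.41 to 3.41) did not pass edgeR's test (adjusted p = 0.580). The interval spans both no difference and one larger than the fitted value.

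Against VIP the differences in Nxph1 and Nxph2 are lower bounds, since no VIP library had a read, and they are given without a test because the genes were chosen for this absence. Set against 3 reads over the whole VIP group (0.0999 CPM), Nxph1 was at least 12267-fold higher in Nkx2.1 and at least 7668-fold higher in SOM. Nxph2 was at least 2463-fold higher in Nkx2.1 and at least 858-fold higher in SOM. The bounds depend on the VIP depth: without VIP replicate 3 they were 7284 and 4553 for Nxph1 and 1462 and 509.7 for Nxph2. All of them hold for counted reads only, because the floor of 3 reads covers counting error alone and PCR copies are counted as reads. Of the 10728 genes tested, 4 (0.0373%) had no read in any VIP library and at least 20 CPM in each of the 6 others: Nxph1, Nxph2, Edaradd and Thbs1. This criterion was chosen after the values were seen, and nothing is read from its count. In bulk samples such as these, fewer cells expressing a gene and less RNA per cell cannot be told apart.

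The other neurexophilins had few reads. Nxph3 had 18 reads in Nkx2.1 replicate 1 (2.04 CPM) and none in the other 8 libraries. Nxph4 had 116 reads in VIP replicate 3 (9.51 CPM) and none in the other 8 libraries. Each therefore rests on a single library, and Nkx2.1 replicate 1 is also the library with the highest astrocyte marker sum, whose part in the Nxph3 reads was not tested. Both genes lie on minus strands (chromosomes 11 and 10). On the minus strand of chromosome 9, 93.1% of protein-coding genes had no read, against 33.6% on its plus strand. Chromosomes 10 and 11 were not counted by strand, so the zeros of Nxph3 and Nxph4 are not read as absence.

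Divided by the length of the merged exons, to allow levels of different genes to be compared, Nxph1 averaged 252 and 158 CPM per kb in Nkx2.1 and SOM, and Nxph2 averaged 93.7 and 33.1. Nxph2 made up 26.9% ± 2.36 of the summed Nxph1 and Nxph2 level in Nkx2.1 and 17.2% ± 8.71 in SOM (SD, n = 3 each; exact two-sided permutation test, p = 0.2, adjusted 0.52 over 13 comparisons of shares). The ratio of Nxph1 to Nxph2 per kb was 2.54, 3.14 and 2.54 in the Nkx2.1 libraries and 10.6, 4.91 and 2.84 in the SOM libraries. It was narrow in Nkx2.1 and wide in SOM, where replicate 3 reached the Nkx2.1 range.

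For the genes that tracked the pair most closely, likeness was measured as the root mean square difference between centred log2(CPM + 1) profiles over the 9 libraries, in which the VIP zeros weigh heavily. The 5 genes most like Nxph1 were Lhx6 (0.323), Cntnap3 (1.01), Nxph2 (1.44), Thbs1 (1.59) and Gria3 (1.77). Lhx6 came closer to Nxph1 than any other tested gene. Gria3 shared the near absence from VIP but had the opposite order of means in the other groups. It averaged 114 ± 112 CPM in Nkx2.1 and 273 ± 122 in SOM (SD, n = 3 each), whereas the others listed averaged higher in Nkx2.1, as Nxph1 did. The 5 most like Nxph2 were Thbs1 (0.820), Cntnap3 (0.881), Glcci1 (0.916), Zfp462 (0.954) and Spag6 (1.02), and Nxph1 ranked 17 in that list. Cntnap3 belongs to the contactin-associated proteins and Gria3 encodes a subunit of AMPA-type glutamate receptors. These distances describe 9 libraries in 3 groups and have no test.

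The Nxph2 promoter is shown because its gene shares the VIP absence with Nxph1 and a RefSeq entry lies wholly upstream of its annotated start (RefSeq, GRCm38.p6, chr2:23320996-23321245, plus strand); 5 of the 9 genes had an entry.
Nxph2: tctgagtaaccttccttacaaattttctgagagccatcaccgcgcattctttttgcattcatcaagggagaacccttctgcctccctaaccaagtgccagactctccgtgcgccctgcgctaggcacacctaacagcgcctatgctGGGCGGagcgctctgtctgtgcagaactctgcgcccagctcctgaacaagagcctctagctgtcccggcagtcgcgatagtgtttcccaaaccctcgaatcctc
The capitals mark the single match to GGGCGG, the GC box bound by Sp1-type factors, searched on both strands. That motif is present in 32.7% of 32851 promoter windows of the same length. TAATTA, a homeodomain core, is in 4.84% and TATAAA in 12.4% of such windows, and neither is in this window; no match says only that these letters are not in these 250 bases. GC content of the window is 55.6%.

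Both neurexins had reads in every library, and Nrxn3 was the more abundant in each. Nrxn3 (chr12:88722876-90334935, plus strand) encodes neurexin 3. Its level was 2000.3, 1828 and 1353 CPM in Nkx2.1, 1556, 1378 and 2071 CPM in SOM, and 1197, 679.9 and 1686 CPM in VIP. The 3 groups overlapped, and VIP replicate 2 was the lowest library. The group means were 1727 ± 335, 1668 ± 360 and 1188 ± 503 CPM (SD, n = 3 each). The log2 difference was 0.05 ± 0.33 for Nkx2.1 against SOM (SE; 95% interval −0.69 to 0.79), 0.54 ± 0.33 for Nkx2.1 against VIP (−0.20 to 1.28) and 0.49 ± 0.33 for SOM against VIP (−0.25 to 1.23), and edgeR's adjusted p was at least 0.515 in each. With its coefficient of variation of 19.4% and 21.6% in Nkx2.1 and SOM, Nrxn3 had a narrower spread than the typical gene. That comparison was again not matched for level. Its intervals are the narrowest among the tested genes of the set.

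Nrxn2 (chr19:6418731-6544169, plus strand) encodes neurexin 2. Its reads may include some from Slc22a12, a gene on the opposite strand that overlaps it and had 116 reads of its own over the 9 libraries. That count is not a measure of how little Slc22a12 was expressed, since on the minus strand of chromosome 19, where it lies, 188 of 320 protein-coding genes (58.8%) had no read, against 31.4% on the plus strand, which carries Nrxn2. Its level was 135, 145 and 45.9 CPM in Nkx2.1, 73.2, 77.9 and 84.8 CPM in SOM, and 167, 119 and 108 CPM in VIP. All SOM libraries lay below all VIP libraries, and Nkx2.1 replicate 3 lay below all 6 of those. Over all genes, 9% had SOM libraries that lay wholly below the VIP libraries, so 1 such gene among the 5 tested is no result about the set (19.9% did not overlap in either direction). The means were 109 ± 54.6 CPM in Nkx2.1, 78.6 ± 5.84 in SOM and 132 ± 31.4 in VIP (SD, n = 3 each). The log2 difference of SOM against VIP was −0.74 ± 0.74 (SE; 95% interval −2.38 to 0.89; edgeR's adjusted p = 1.00). For Nkx2.1 against SOM it was 0.47 ± 0.73 (−1.16 to 2.09; adjusted p = 0.962) and for Nkx2.1 against VIP −0.28 ± 0.73 (−1.91 to 1.35; adjusted p = 0.927), again by edgeR.

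Per kb of merged exon, Nrxn3 averaged 137 CPM in Nkx2.1, 132 in SOM and 94.2 in VIP, and Nrxn2 averaged 7.86, 5.69 and 9.54 CPM. The ratio of Nrxn3 to Nrxn2 per kb ran from 13.8 to 32.3 in Nkx2.1, from 19.4 to 26.8 in SOM and from 6.23 to 17.1 in VIP. Nrxn2 made up 5.18% ± 1.95, 4.21% ± 0.65 and 10.2% ± 4.25 of the summed level (SD, n = 3 each), and the SOM and VIP shares did not overlap (exact two-sided permutation p = 0.1, the smallest that 3 against 3 can give; Benjamini-Hochberg adjusted 0.325 over 13 comparisons). These numbers count whole genes, so alpha and beta neurexin forms and splice forms are not separated.

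Neuroligin 1 (Nlgn1, chr3:25426215-26332460, minus strand) had the widest range of levels among the neuroligins. Its level was 489, 192 and 99.3 CPM in Nkx2.1, 35.8, 66.9 and 51.9 CPM in SOM, and 286, 147 and 51.7 CPM in VIP. All Nkx2.1 libraries lay above all SOM libraries, whereas the VIP libraries spread over both ranges. The means were 260 ± 203, 51.5 ± 15.6 and 161 ± 118 CPM (SD, n = 3 each). The mean in Nkx2.1 was 5.05 times that in SOM, with a fitted log2 difference of 2.33 ± 0.84 (SE; 95% interval 0.47 to 4.20). This did not pass edgeR's test (unadjusted p = 0.0190, adjusted p = 0.362), and did pass in DESeq2 (log2 2.40, adjusted p = 0.0494), so it is a call under 1 tool. The adjusted p ran from 0.0494 to 0.626 over the alternatives. Nkx2.1 replicate 1, the highest library for Nlgn1, was also the library with the highest astrocyte marker sum (3563 CPM). Within its group it also had the highest sums of caudal eminence markers (Vip, Prox1 and Adarb2) and of excitatory neuron markers. These were 212 CPM against 10.7 and 11.7, and 116 CPM against 0 and 80.3, in replicates 2 and 3. Without Nkx2.1 replicate 1 the log2 difference of Nlgn1 was 1.51 and edgeR's adjusted p was 0.449. The part of other cell types in the Nlgn1 difference was not tested. The log2 difference was 0.69 ± 0.80 for Nkx2.1 against VIP (95% interval −1.10 to 2.47; edgeR's adjusted p = 0.797) and −1.65 ± 0.82 for SOM against VIP (−3.47 to 0.18; adjusted p = 0.828).

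Nlgn2 (chr11:69823122-69837784, minus strand), is the neuroligin of inhibitory synapses. Its level was 82.1, 27.0 and 25.4 CPM in Nkx2.1, 152, 37.1 and 65.9 CPM in SOM, and 79.7, 56.5 and 88.1 CPM in VIP. A single library, SOM replicate 1, was above all others, and all 3 groups overlapped. The log2 difference was −0.92 ± 0.99 for Nkx2.1 against SOM (SE; 95% interval −3.12 to 1.28), −0.74 ± 0.99 for Nkx2.1 against VIP (−2.93 to 1.46) and 0.18 ± 0.98 for SOM against VIP (−2.0 to 2.37), with edgeR's adjusted p at least 0.829. Without SOM replicate 1, the log2 difference of Nkx2.1 against SOM was −0.20 and that of SOM against VIP turned to −0.54.

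Nlgn3 (chrX:101299168-101325963, plus strand), the neuroligin of both synapse types, had its top values in SOM. Its level was 115, 245 and 158 CPM in Nkx2.1, 219, 318 and 330.3 CPM in SOM, and 229.5, 169 and 148 CPM in VIP. SOM replicates 2 and 3 were the highest libraries, but the SOM group overlapped both others. The group means were 173 ± 66.1, 289 ± 60.9 and 182 ± 42.5 CPM (SD, n = 3 each). The log2 difference was −0.74 ± 0.50 for Nkx2.1 against SOM (SE; 95% interval −1.86 to 0.37), −0.07 ± 0.50 for Nkx2.1 against VIP (−1.18 to 1.03) and 0.67 ± 0.50 for SOM against VIP (−0.44 to 1.78), and none passed edgeR's test (adjusted p at least 0.694).

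**Figure D2:**
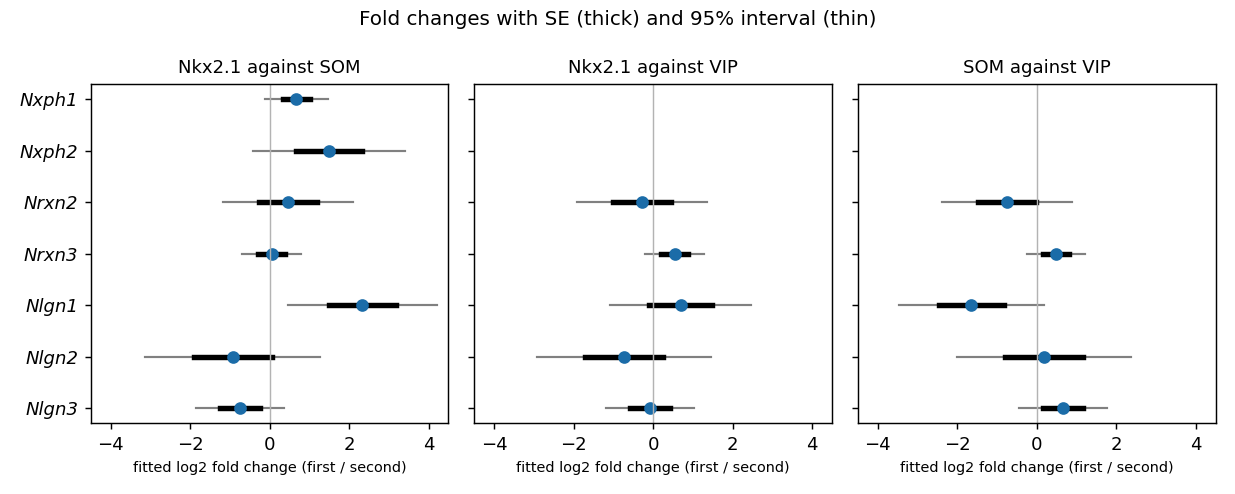
Fitted log2 differences of the genes that passed the filter in each comparison, with the SE as a thick line and the 95% interval as a thin one; contrasts of Nxph1 and Nxph2 with VIP are not shown. The interval of Nlgn1 for Nkx2.1 against SOM (0.47 to 4.20) is the only one that does not reach 0.

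Counted by overlap, 3 of the 7 genes tested for Nkx2.1 against SOM had all Nkx2.1 libraries above all SOM libraries (Nxph1, Nxph2 and Nlgn1), beside 5.9% of all genes tested in that direction and 19.9% in either. Without TMM scaling the count was 2, as Nxph1 then overlapped. Because the genes were chosen with results of these data in view, this count is not read as a test. Nkx2.1 against VIP had 0 of 5 genes without overlap, beside 20.1% of all genes in either direction (7.31% with Nkx2.1 higher). The median log2 difference of the tested genes was 0.47 for Nkx2.1 against SOM, −0.07 for Nkx2.1 against VIP and 0.18 for SOM against VIP, beside −0.01, 0.00 and 0.00 over all genes tested.

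On the scale per kb, Nlgn1, Nlgn2 and Nlgn3 averaged 19.4, 7.75 and 18.6 CPM in Nkx2.1, 3.84, 14.7 and 31.2 CPM in SOM, and 12, 12.9 and 19.6 CPM in VIP. The order therefore placed Nlgn3 first in SOM and VIP, while Nlgn1 and Nlgn3 were close in Nkx2.1 and within their spread. Nlgn1 and Nlgn2 lie on minus strands and Nlgn3 on a plus strand. Whether reads were lost by strand on chromosomes 3, 11 and X was not tested, so this order is one of counted reads only. Of the summed neuroligin level, Nlgn1 made up 38.3% ± 17.1 in Nkx2.1 (25.6% to 57.8%), 7.86% ± 2.92 in SOM (5.07% to 10.9%) and 24.9% ± 12.6 in VIP (11% to 35.6%). The shares of Nlgn1 in SOM did not overlap those in the other groups (SD, n = 3 each; exact two-sided permutation p = 0.1 for each, adjusted 0.325 over 13 comparisons). Nlgn2 made up 16% ± 6.15, 28.8% ± 18.8 and 30.5% ± 11.3, and did not overlap between Nkx2.1 and VIP (exact p = 0.1, adjusted 0.325). Nlgn3 made up 45.7% ± 22.5, 63.4% ± 16.1 and 44.6% ± 2.83. With 3 libraries against 3 no share can reach an exact p under 0.1.

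**Figure D3:**
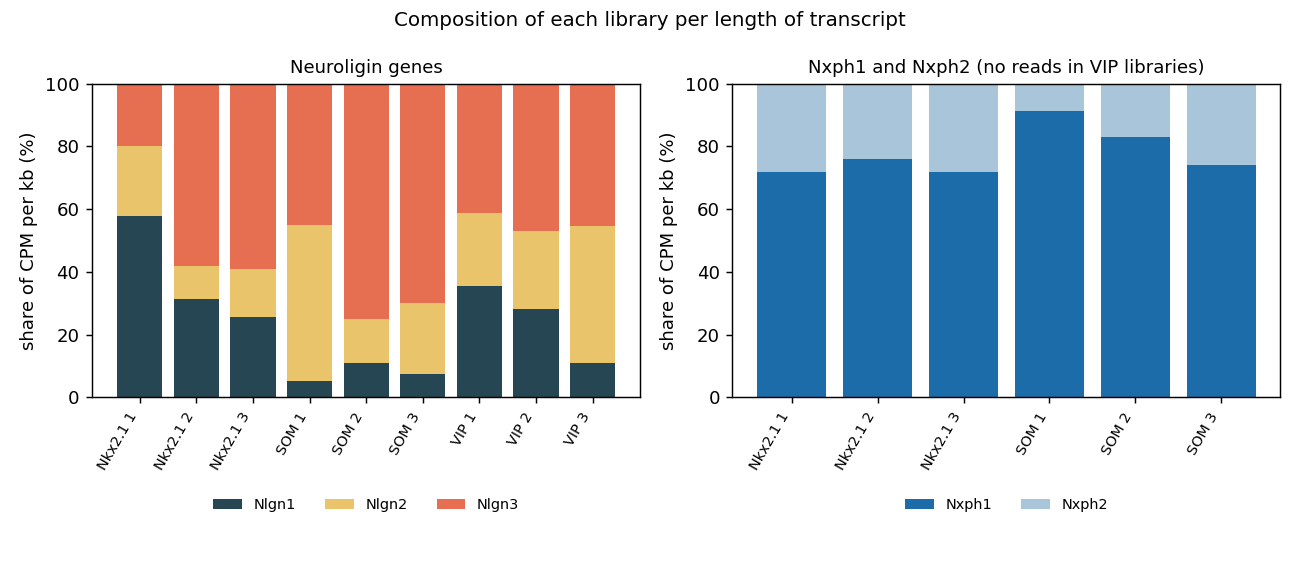
Stacked bars of each library's summed CPM per kb (percent), divided among the 3 neuroligin genes on the left and, on the right, between Nxph1 and Nxph2 in the 6 libraries that have reads of them. Nlgn1 is 5.07% to 10.9% of the neuroligins in SOM libraries and 25.6% to 57.8% in Nkx2.1 libraries.

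Partners of these proteins were examined as 47 genes in 4 lists, covering 23 other extracellular ligands of neurexins, 6 cytoplasmic partners of neurexins, 15 postsynaptic partners and regulators of neuroligins, and 3 regulators of neurexin splicing. The lists were chosen with earlier results of these data known. Of the 47 genes, 38 were tested (16, 5, 14 and 3) and 7 had no read in any library: Cbln1, Clstn2, Dag1, C1ql2, Fam19a3, Fam19a4 and Cask. Clstn2 and Dag1 lie on the minus strand of chromosome 9, where 486 of 522 protein-coding genes (93.1%) had no read. This compares with 33.6% on the plus strand of that chromosome and 32.5% over all chromosomes but 9 and 19. Cbln1, Fam19a3, Fam19a4 and Cask also lie on minus strands (chromosomes 8, 3, 6 and X), and C1ql2 on the plus strand of chromosome 1. For those chromosomes the genes without a read were not counted by strand. None of these zeros is read as absence. Called by edgeR were 0 of 38 for Nkx2.1 against SOM, 1 of 38 (lower in Nkx2.1) for Nkx2.1 against VIP and 0 of 38 for SOM against VIP; the background for all genes is 0.0932%, 0.308% and 0.0746%. At an unadjusted p under 0.05 the counts of partners were 7, 16 and 5 of 38, beside 11.3%, 15.2% and 6.99% of all genes. DESeq2 called 2 higher and 4 lower, 6 higher and 5 lower, and 2 higher and 1 lower, beside 7.16%, 11.8% and 3.56% of all genes in either direction. Because the lists were chosen with earlier results of these data known, these counts of partners are not read as a test of the lists. The median log2 difference of the partners was −0.27, −0.28 and −0.28, beside −0.01, 0.00 and 0.00 over all genes.

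The gene called was Cbln2, which encodes a secreted cerebellin that bridges neurexins to postsynaptic receptors. It had 1, 0 and 5 reads in Nkx2.1, 4.25, 9.92 and 12.9 CPM in SOM, and 382, 1016 and 582 CPM in VIP. The VIP libraries (660 ± 324 CPM, SD, n = 3) thus lay far above both other groups. edgeR gave a log2 difference of −11.75 ± 1.28 for Nkx2.1 against VIP (adjusted p = 0.00450), a value that depends on the small count added before the logarithm as Nkx2.1 had so few reads. The call was kept in every alternative run, with edgeR's adjusted p reaching 0.0314 without VIP replicate 2. SOM against VIP had a log2 difference of −6.19 that did not pass (adjusted p = 0.0659).

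The remaining partners named are the top pair of each list by mean level, and none passed edgeR's test in any comparison. Clstn3 (calsyntenin 3, which binds neurexins) averaged 687 ± 293 CPM in Nkx2.1, 625 ± 155 in SOM and 1385 ± 477 in VIP, and in the same order Lphn3 (latrophilin 3) 462 ± 285, 489 ± 228 and 303 ± 65.8 CPM. Of the cytoplasmic partners, Lin7c averaged 1015 ± 265, 785 ± 83.3 and 628 ± 145 CPM and Apba2 (Mint2) 81.6 ± 65.6, 179 ± 8.28 and 318 ± 107 CPM. Apba2 libraries did not overlap in any of the comparisons, with Nkx2.1 lowest and VIP highest. Its lowest adjusted p by edgeR was 0.233, in the contrast of Nkx2.1 with VIP. Over all genes, 19.9% to 20.1% had no overlap in a given comparison, in either direction. How many genes lack overlap in every comparison was not counted, so nothing is read from the order of Apba2. On the postsynaptic side, Dlg2 (PSD-93) averaged 454 ± 226, 649 ± 132 and 386 ± 276 CPM and Magi2, a scaffold that binds neuroligins, 445 ± 221, 222 ± 74.4 and 132 ± 48.8 CPM. The splicing regulators Khdrbs1 (Sam68) and Khdrbs3 (SLM2) averaged 88.9 ± 130, 71.0 ± 64.6 and 85.8 ± 99.8 CPM, and 50.1 ± 15.5, 79.3 ± 35.1 and 41.1 ± 25.1 CPM (SD, n = 3 each).

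Of the extracellular ligands, a pair named after their values were seen had opposite patterns in Nkx2.1. Fam19a2, a secreted neurexin ligand, was 616, 1261 and 372 CPM in Nkx2.1, and at most 22.7 CPM in SOM and 44.7 CPM in VIP. Igsf21, a postsynaptic partner of neurexin 2, had 5, 1 and 0 reads in Nkx2.1 against 20.3 to 76.2 CPM in SOM and 55.1 to 173 CPM in VIP. Neither passed edgeR's test (adjusted p = 0.217 and 0.121 against VIP). Over all genes, 14% had Nkx2.1 libraries wholly below the SOM libraries and 5.9% wholly above, and fewer genes had a read in Nkx2.1 than in SOM. The part of this in the low Nkx2.1 values of Igsf21 and Cbln2 was not tested. By list, the median log2 differences for Nkx2.1 against VIP were −1.01 for 16 ligands and −1.96 for 5 cytoplasmic partners. They were 0.41 for 14 postsynaptic partners and 0.05 for 3 splicing regulators. Of the 5 cytoplasmic partners, 2 had a positive and 3 a negative log2 difference there, and none passed edgeR's test. In the same order of lists the medians were −0.33, −1.13, 0.34 and −0.53 for Nkx2.1 against SOM. For SOM against VIP they were −0.49, −0.63, 0.09 and −0.27. These medians have no test.

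**Figure D4:**
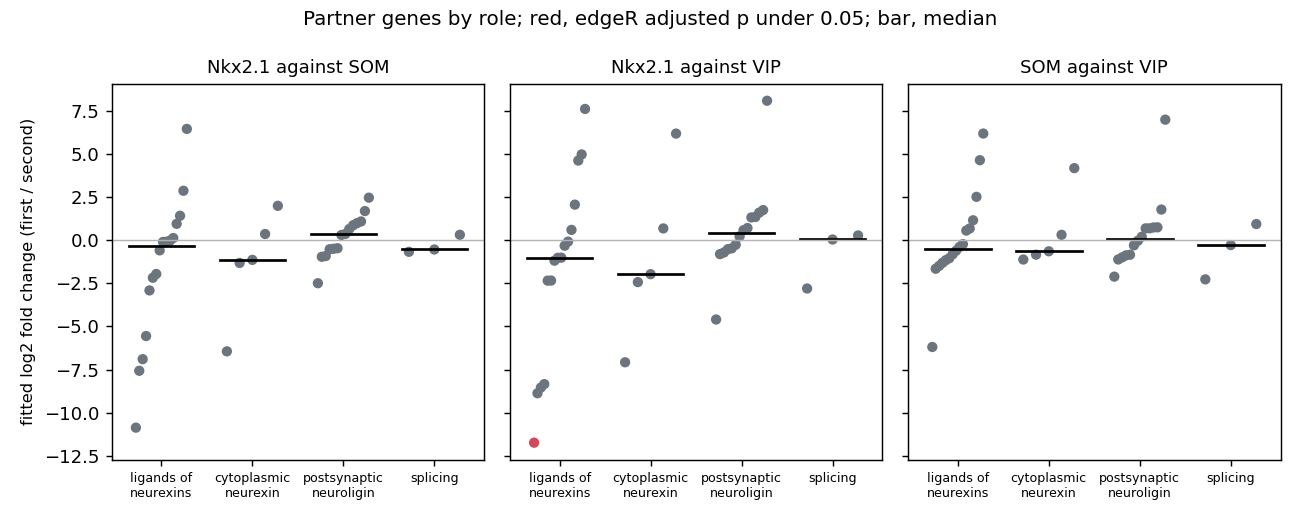
Fitted log2 differences of the tested partner genes by list and comparison; each point is a gene, the bar is the list's median and red marks an edgeR adjusted p under 0.05. Cbln2 is the only red point, at −11.75 for Nkx2.1 against VIP.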

How the data were processed

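RNA was sequenced from 9 libraries of 150 hand-picked cells, 3 per driver line. The authors deposited raw counts per gene symbol, 1 table per library, per the labels. The submitters' processing notes name TopHat2 2.0.9, DESeq2 and the mm10 build; for counting program, annotation and strand setting, the sources used here give nothing. The 5 summary entries of each table, which name no gene, held 83.6% to 85.2% of its total (reads with several alignments 64.5% to 68.0%, no feature 16.4% to 18.2%) and were left out. From the deposited counts, edgeR 4.0.16 (R 4.3.3, limma 3.58.1) fitted all 9 libraries with 1 group term, TMM scaling and filterByExpr (minimum count 10). Genes were tested by a quasi-likelihood test with Benjamini-Hochberg adjustment, threshold 0.05. The design left 6 residual degrees of freedom. For Nxph1 and Nxph2, without a read in VIP, the test and intervals used fewer. Alternatives were DESeq2 1.42.0, other scaling, no filter, the compared groups alone, a replicate block and leaving out each library. Intervals cover 95%. Lengths are GENCODE M21 merged exons (GRCm38). Sequence identity was computed from that annotation's coding sequences, and shared runs from its whole transcripts. The scripts were tested on simulated data. Genes named are the 9 members, each partner called, the 2 most abundant partners of each list, the 5 genes most like Nxph1 and Nxph2, and driver and marker genes; exceptions are marked. The members and lists were chosen with earlier results of these data known. Any further neurexin gene is not analysed here. The floor of 3 reads covers counting error only, because no molecular identifiers are recorded and PCR copies are counted as reads.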

Additional observations from a re-analysis of the deposited data

How the results depend on the processing

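The number of genes called moved with the tool and design. For Nkx2.1 against SOM it was 10, and became 768 with DESeq2, 5 with the compared groups alone and 4 with the replicate block, and 0 to 37 when libraries were left out in turn. It was 37 without Nkx2.1 replicate 1, 4 without Nkx2.1 replicate 2, 3, 0 and 5 on leaving out SOM replicate 1, 2 or 3, and 6 without VIP replicate 1. For Nkx2.1 against VIP it was 33, and became 1262 with DESeq2, 20 with the compared groups alone, 11 with the replicate block and 12 to 48 on leaving out a library (21 or 19 on leaving out SOM replicate 2 or 3, 16 or 12 on leaving out VIP replicate 1 or 3). For SOM against VIP it was 8, and became 382 with DESeq2, 21 with no filter, 32 with the compared groups alone, 4 with the replicate block and 3 to 17 on leaving out a library (17 or 4 on leaving out Nkx2.1 replicate 2 or 3, and 3 on leaving out SOM replicate 2 or 3). The cause was not tested. Of the members, DESeq2 called 1 for Nkx2.1 against SOM (Nlgn1, log2 2.40). Otherwise no member was called. The bounds against VIP ran, on leaving out a library, from 7284 to 13301 and 4553 to 8210 for Nxph1 in Nkx2.1 and SOM, and from 1462 to 2812 and 509.7 to 1102 for Nxph2. Some log2 differences that did not pass the test reversed. Nrxn3 in Nkx2.1 against SOM was −0.12 with no scaling and ran from −0.070 (without SOM replicate 2; −0.054 without Nkx2.1 replicate 1) to 0.24 on leaving out a library. Nlgn2 in SOM against VIP was −0.085 with the replicate block and ran from −0.54 (without SOM replicate 1) to 0.54. In Nkx2.1 against VIP, Nlgn1 ran from −0.11 (without Nkx2.1 replicate 1) to 1.47, Nlgn3 from −0.41 to 0.18 (without Nkx2.1 replicate 1 or VIP replicate 1), and Nrxn2 from −0.54 to 0.090 (without Nkx2.1 replicate 3). Members without overlap for Nkx2.1 against SOM fell from 3 to 2 with no scaling, an alternative chosen after seeing the data. Same-numbered libraries correlated at −0.0412 to 0.0671 and others at −0.0708 to 0.0623, so the numbers were not taken to pair the samples. Of the members' log2 differences under all alternatives, 245 kept direction and side of the threshold and 9 reversed. The 1 other, Nlgn1 under DESeq2, passed the threshold.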
